A study of Mus musculus with 32 samples.

Results

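The 36 genes described here encode the enzymes that build cholesterol and fatty acids, the factors that control those enzymes, and proteins that move, store or export sterols. They were chosen by name from these pathways, with earlier results of these data known, and make up 36 of the 23517 genes in the table of counts. RNA was sequenced from Lgr5-EGFP+ cells, sorted from proximal colonic organoids of 8 Lgr5-EGFP-IRES-CreERT2 mice. In these mice the Lgr5 locus drives EGFP and an inducible Cre, so the green cells are those expressing this marker of intestinal stem and progenitor cells. All organoids grew in Matrigel with L-WRN medium, which is conditioned by cells secreting Wnt3a, R-spondin and Noggin. Organoids of each mouse were left untreated or received 250 nM bethanechol (Bch), a muscarinic receptor agonist, renewed daily for 4 days. In all, 2 libraries labelled as technical replicates were deposited per mouse and treatment, 32 libraries in total, and were summed into 16 values of 1 mouse and 1 treatment each.

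The mice fell into 2 sets of 4. Mice 1 to 4 (BR1-BR4) are labelled male, with sorted Lgr5+ cells as the source, and RNA was extracted with a Plus Micro kit. Mice 7 to 10 (BR7-BR10) carry no sex in their labels, have colonic organoids as the labelled source, and went through a Mini kit. The text of the series counts 4 female and 4 male animals, which leaves BR7-BR10 as the female set by elimination. Sex, kit and labelled source therefore cannot be told apart in any difference between the sets. No age is given beyond a statement that the animals were matched for age and sex.

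Cholesterol is made from acetyl-CoA through mevalonate, isoprenoid diphosphates, squalene and lanosterol, and fatty acids are made from the same acetyl-CoA. Most genes of both routes are switched on by the sterol regulatory element-binding proteins (SREBPs), which are held in the endoplasmic reticulum by Scap and Insig proteins while sterols are plentiful and are released to the nucleus when sterols fall. SREBPs bind sterol regulatory elements, commonly beside sites for NF-Y, which reads CCAAT, and for Sp1, which reads GC-rich boxes. Dividing epithelial cells need both products for new membranes.

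Promoter windows from RefSeq (build GRCm38.p6) were matched by symbol for 29 of the 36 members. Both strands of each whole window were searched, and a gene held a motif if any of its windows did. Only the sequences printed below are cut to the 250 bases before the gene's start. No window was matched for Fdps, Fdft1, Sqle, Scd1, Scd2, Stard4 and Npc1. The sterol regulatory element was searched only as the exact letters TCACNCCAC, so near matches were not counted. It was found in 1 of the 29, or 3.45%, against 1.44% of 27025 genes. That member was Hmgcs1, which encodes the synthase that makes HMG-CoA. The motif CCAAT was held by 25 of 29 members (86.2%), against 41.1% of all genes and 43.6% of the genes that passed the filter on low counts. The GC box GGGCGG was also held by 25 members (86.2%), against 38.2% of all genes and 71.1% of those that passed the filter. The E-box CACGTG was held by 6 members (20.7%), against 8.09% and 12.5%. These are letter matches and no measurement of binding. The windows of Hmgcs1 and Mvk (mevalonate kinase) are printed 5′ to 3′ because Hmgcs1 holds the sterol element and Mvk holds 5 CCAAT motifs, the letters in capitals, with ATTGG as the form on the other strand. Both windows lie on the + strand, Hmgcs1 at chr13:119690101-119690350 and Mvk at chr5:114444019-114444268. The capitals of Hmgcs1 begin 137 bases before the start.
Hmgcs1: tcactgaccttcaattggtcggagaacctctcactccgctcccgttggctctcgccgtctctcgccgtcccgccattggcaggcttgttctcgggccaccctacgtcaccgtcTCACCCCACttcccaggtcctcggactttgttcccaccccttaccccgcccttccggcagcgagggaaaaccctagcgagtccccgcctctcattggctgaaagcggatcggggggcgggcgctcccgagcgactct
Mvk: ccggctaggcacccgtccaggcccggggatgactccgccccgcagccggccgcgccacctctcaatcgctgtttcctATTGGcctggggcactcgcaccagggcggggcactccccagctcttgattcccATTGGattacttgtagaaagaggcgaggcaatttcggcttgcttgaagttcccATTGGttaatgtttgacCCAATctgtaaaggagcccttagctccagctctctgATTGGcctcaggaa

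The sums held 557512 to 4050342 UMIs, of which the members took 0.195 to 0.343%. Levels are given as CPM, which is counts scaled by TMM to a common library size, and a gene with 0 UMIs could still lie at up to 0.710 CPM in the deepest sum and 5.29 CPM in the shallowest, counting error only. These limits take the UMIs of a sum as independent counts and are too low to the extent that both technical replicates counted the same molecules. The shallowest sum was untreated mouse 3. The 15 stem cell markers were detected in every group, Lgr5 lay between 12.5 and 38.9 CPM across the sums, and summed fibroblast and blood cell markers reached at most 9.50 and 11.6 CPM. Summed muscarinic receptor genes reached at most 3.17 CPM. The counts of 4 members were too low for the tests, namely Idi1, Mylip, Npc1 and Abca1, and 32 were tested in each comparison. All 8 mouse pairs are separate animals, so errors are between mice.

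Members were called between the sets, and none between treatments. In untreated cells, 4 members were higher in BR7-BR10 than in BR1-BR4 and none was lower, by edgeR's quasi-likelihood test at an adjusted p of 0.05. They were Msmo1, which removes methyl groups from sterol intermediates, Acat2, the thiolase that joins the first acetyl-CoA units, Mvk, and Scd2, a stearoyl-CoA desaturase. Over all 9159 genes tested, 1.64% were called, 0.972% higher and 0.666% lower. At an unadjusted p under 0.05, 13 of the 32 members were higher and 0 lower, against 6.66% and 6.05% of all genes. The log2 difference was above 0 for 24 of 32 (75.0%), against 47.9% of all genes, and the median was 0.33, against -0.016. In bulk RNA, fewer cells of a type and less RNA per cell cannot be told apart.

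**Figure D1:**
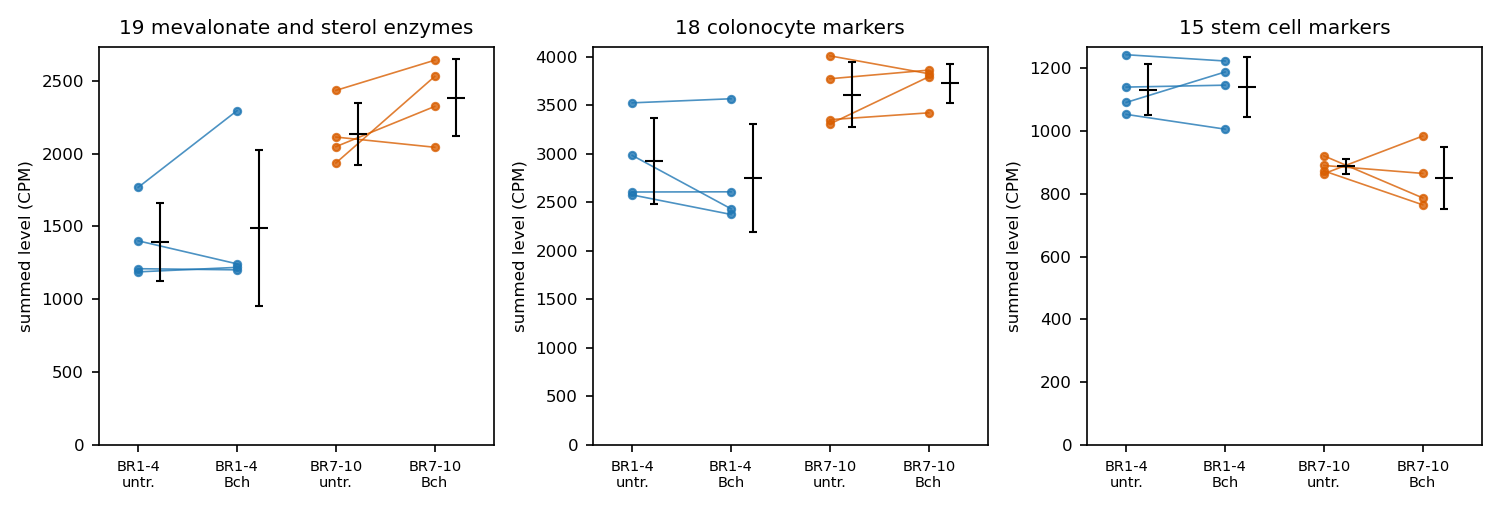
Summed level in CPM of the 19 mevalonate and sterol enzymes, 18 colonocyte markers and 15 stem cell markers in each sum. Points are mice, lines join the untreated and Bch-treated sums of a mouse, and black marks give the mean and SD of 4 mice. The enzyme sum of mouse 1, at 1768 and 2294 CPM, lies above those of mice 2 to 4, which span 1188 to 1401 CPM.

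Summed over the 19 enzymes from Acat2 to Dhcr7, the untreated level was 1768 CPM in mouse 1, 1401 in mouse 2, 1188 in mouse 3 and 1209.7 in mouse 4. In BR7-BR10 it was 1935 CPM in mouse 7, 2113 in mouse 8, 2047 in mouse 9 and 2433 in mouse 10. The untreated sets did not overlap, and mouse 1 lay nearest to BR7-BR10. With Bch the sums did overlap, at 2294, 1243, 1219 and 1202 CPM in mice 1 to 4 and 2529, 2043, 2323 and 2640.2 CPM in mice 7 to 10, since mouse 1 lay above mouse 8. The untreated means were 1392 ± 268 CPM in BR1-BR4 and 2132 ± 213 CPM in BR7-BR10 (SD, n = 4).

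Among the mevalonate and isoprenoid enzymes, 6 of 7 tested members had a higher level in BR7-BR10, with a median log2 difference of 0.59, and 2 passed the adjusted threshold. Untreated Acat2 was at 100.4, 83.2, 51.1 and 62.5 CPM in mice 1 to 4 and at 101, 139, 172 and 170.2 CPM in mice 7 to 10. The groups did not overlap, but mouse 1 and mouse 7 all but met. The log2 difference was 0.92 (SE 0.18, edgeR adjusted p = 0.00737). Untreated Mvk was at 40.5, 29.7, 26.4 and 28.2 CPM in BR1-BR4 and at 53.6, 69.4, 49.1 and 57.1 CPM in BR7-BR10. Every mouse of BR7-BR10 was higher, by 0.82 on the log2 scale (SE 0.20, edgeR adjusted p = 0.0225). Fdps, which makes farnesyl diphosphate, ran from 241 to 556 CPM in BR1-BR4 and from 572 to 805 CPM in BR7-BR10, without overlap, at a log2 difference of 0.80 (SE 0.23, edgeR adjusted p = 0.144). Mvd, the decarboxylase of the route, was just outside the threshold, with a log2 difference of 0.59 (SE 0.16, edgeR adjusted p = 0.0526). Ggps1, which extends the chain to geranylgeranyl diphosphate for protein prenylation, had a log2 difference of -0.04 (SE 0.25).

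**Figure D2:**
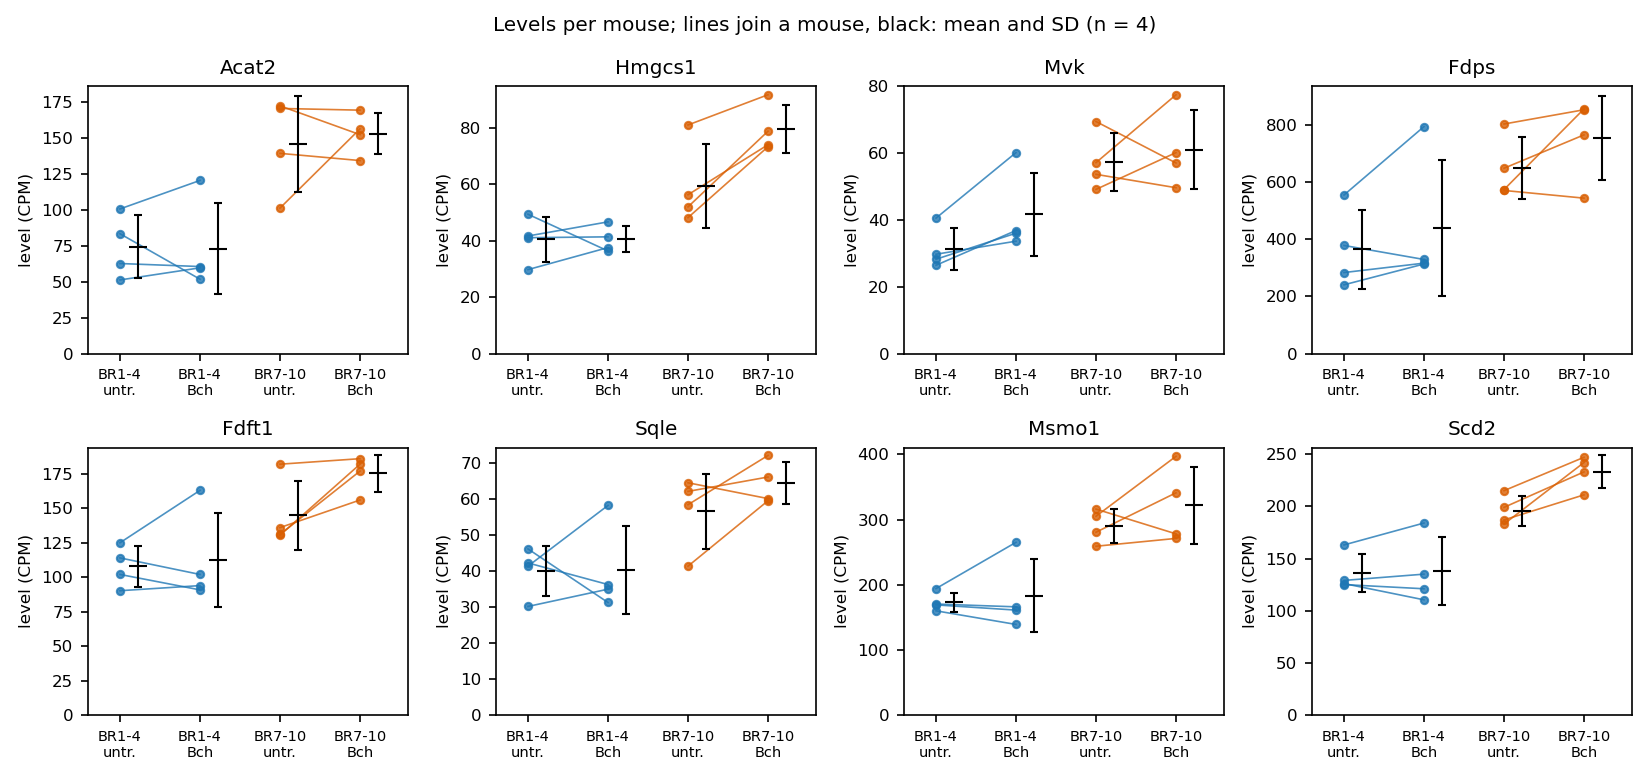
Levels in CPM of 8 members in the 16 sums, with untreated (untr.) and Bch-treated cells of each set side by side. Points are mice, lines join the 2 sums of a mouse, and black marks are the mean and SD of 4 mice. Msmo1 in untreated cells lies at 159.9 to 194 CPM in BR1-BR4 and at 259 to 316 CPM in BR7-BR10.

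Of the 11 squalene and sterol enzymes, 10 had a higher untreated level in BR7-BR10, with a median log2 difference of 0.34, and 1 passed the adjusted threshold. Untreated Msmo1 was at 194, 170.3, 169 and 159.9 CPM in mice 1 to 4 and at 280.5, 316, 259 and 305 CPM in mice 7 to 10. This gap was wide against the spread within each set, at a log2 difference of 0.73 (SE 0.12, edgeR adjusted p = 0.000560). Fdft1, which joins farnesyl units into squalene, and Tm7sf2, a sterol reductase, were also higher in every mouse of BR7-BR10, at log2 differences of 0.41 and 0.37 that missed the adjusted threshold. Sqle (squalene epoxidase) and Ebp (a sterol isomerase) overlapped between the sets, at log2 differences of 0.50 and 0.40. Dhcr7, which catalyses the last reduction, had a log2 difference of 0.22 (SE 0.31).

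Of the 6 fatty acid genes, 4 had a higher untreated level in BR7-BR10 and 1 was called. Untreated Scd2 was at 163, 126, 125 and 129 CPM in BR1-BR4 and at 199, 215, 187 and 183 CPM in BR7-BR10. The groups did not overlap, and mouse 1 was again the highest of its set. The log2 difference was 0.50 (SE 0.13, edgeR adjusted p = 0.0374), a call lost when any of 6 of the 8 mice was left out. Fasn, the fatty acid synthase, and Scd1 had log2 differences of 0.52 and 0.58 with overlapping groups. Acly and Acss2, which supply cytosolic acetyl-CoA from citrate and from acetate, had log2 differences of -0.06 and -0.08. Across the 32 tested members, 7 were without overlap and higher in BR7-BR10 and 0 were without overlap and lower, where 4.57% and 3.43% of all genes were.

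The genes of the SREBP system itself showed no call between the untreated sets. The log2 difference was -0.26 (SE 0.26) for Srebf1, which encodes the factor tied to fatty acid genes, and 0.13 (SE 0.19) for Srebf2, tied to sterol genes. It was -0.23 (SE 0.28) for Scap, which escorts SREBPs, and 0.00 (SE 0.28) for Insig2. Insig1, which retains SREBPs and is itself an SREBP target, had a log2 difference of 0.38 (SE 0.22). For the 5 tested genes of this group the median was 0.00.

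**Figure D3:**
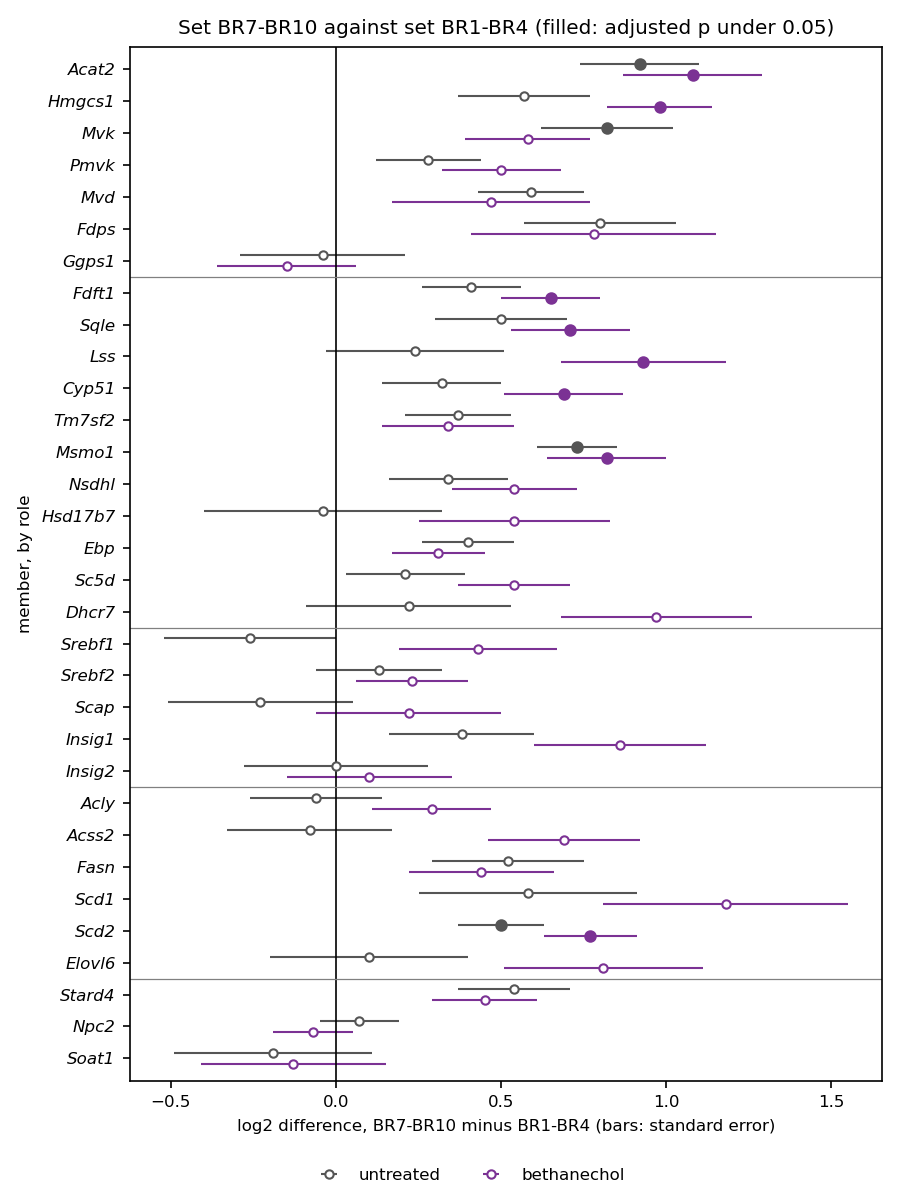
Log2 difference of BR7-BR10 from BR1-BR4 for the 32 tested members, in untreated (grey) and Bch-treated (purple) cells. Bars are standard errors, filled points have an adjusted p under 0.05, and lines part the 5 roles. All 12 filled points, 4 untreated and 8 Bch-treated, lie to the right of 0.

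The Bch-treated cells of the sets were compared as well, a comparison added after the untreated one had been seen, and it uses the same mice. Here 8 members were called higher in BR7-BR10 and 0 lower, against 1.23% and 0.830% of 9639 genes (2.06% in either direction). They were Acat2, Hmgcs1, Fdft1, Sqle, Lss, Cyp51, Msmo1 and Scd2. At an unadjusted p under 0.05, 20 of 32 were higher and 0 lower, against 7.46% and 5.89%, 29 of 32 were above 0 (90.6%), against 48.9% of all genes, and the median log2 difference was 0.54, against -0.007.

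Bch-treated Hmgcs1, whose promoter is printed above, was at 41.3, 46.6, 36.3 and 37.5 CPM in mice 1 to 4 and at 73.9, 91.6, 73.2 and 78.7 CPM in mice 7 to 10. The sets were far apart, and mouse 1 stayed with its set for this gene. The log2 difference was 0.98 (SE 0.16, edgeR adjusted p = 0.000188). Bch-treated Scd2 was at 184, 110.4, 121 and 135 CPM in BR1-BR4 and at 233, 247, 211 and 242 CPM in BR7-BR10, a log2 difference of 0.77 (SE 0.14, edgeR adjusted p = 0.000749). Bch-treated Acat2 was at 120.2, 51.6, 59.5 and 60.4 CPM in BR1-BR4 and at 156, 134, 152 and 169 CPM in BR7-BR10. Its log2 difference was 1.08 (SE 0.21, edgeR adjusted p = 0.0143), with no overlap in spite of mouse 1.

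Of the 11 squalene and sterol enzymes, all 11 had a log2 difference above 0 in Bch-treated cells and 5 were called. Msmo1 was at 265, 166, 161 and 139 CPM in BR1-BR4 and at 341, 278, 271 and 397 CPM in BR7-BR10 (log2 difference 0.82, SE 0.18, edgeR adjusted p = 0.0162). Sqle was at 58.3, 31.3, 36.3 and 35.0 CPM against 60.2, 72.2, 59.6 and 66.2 CPM (0.71, SE 0.18, edgeR adjusted p = 0.0274). In both genes mouse 1 sat just under the lowest mouse of BR7-BR10. Lss, which closes the sterol rings, was at 14.0, 10.3, 12.6 and 14.5 CPM against 35.9, 20.8, 23.9 and 20.8 CPM, without overlap (log2 difference 0.93, SE 0.25, edgeR adjusted p = 0.0429). Fdft1 was at 163, 102, 90.8 and 93.9 CPM against 177, 156, 182 and 186 CPM (0.65, SE 0.15, edgeR adjusted p = 0.0154). Cyp51, which removes a methyl group from lanosterol, was at 83.7, 52.7, 42.4 and 44.0 CPM against 90.8, 94.0, 76.8 and 94.3 CPM (0.69, SE 0.18, edgeR adjusted p = 0.0309). Fdft1 and Cyp51 overlapped between the sets through mouse 1 alone.

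The 6 fatty acid genes all had log2 differences above 0 in Bch-treated cells, from 0.29 for Acly to 1.18 for Scd1, with Scd2 as the single call. The SREBP genes again gave no call, and Insig1 came nearest at 0.86 (SE 0.26, edgeR adjusted p = 0.0964). Without overlap and higher in BR7-BR10 were 9 members, where 3.63% of all genes were, and 0 were without overlap and lower, where 3.90% were.

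Mouse 1 stood apart within BR1-BR4. It had the highest level of its set for 13 of the 18 tested mevalonate and sterol enzymes in untreated cells and for 15 of 18 in Bch-treated cells. Its untreated sum came from 13114 sorted cells, against 2361 to 3000 in the other untreated sums, while its Bch-treated sum came from 3504. Its summed colonocyte markers, at 3523 and 3565 CPM, were also the highest of its set and fell within the range of BR7-BR10. Its summed cycling cell markers, at 1683 and 1643 CPM, were likewise the highest of its set, its stem cell sums, at 1053 and 1006 CPM, were the lowest, and so was its mitochondrial share of UMIs, at 4.49 and 5.41%.

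Most calls between the sets depended on which mice were included. Without mouse 1, 6 members were called in the untreated comparison, where 1.89% of all genes were called, and 19 in the Bch-treated one, where calls over all genes rose as well, from 2.06 to 4.69%. The members' medians were then 0.44 and 0.77. Without mouse 2, 3, 4 or 8 in turn, 2 members were called in untreated cells, where the share of all genes called fell to between 0.766 and 1.01%. In Bch-treated cells 3 were called without mouse 2, 3, 4 or 10, where 0.924 to 1.03% of all genes were, and 4 without mouse 7, where 1.59% were. Over the 8 omissions Msmo1 and Acat2 had an edgeR adjusted p of at most 0.00691 and 0.0382 in untreated cells, and Hmgcs1 and Scd2 of at most 0.00286 and 0.0152 in Bch-treated cells. The other calls were lost in some omissions. In untreated cells Mvk passed in 4 of 8 omissions and Scd2 in 2, with an adjusted p of up to 0.107 and 0.165. In Bch-treated cells Acat2, Fdft1 and Msmo1 passed in 4 of 8, Sqle in 3, and Lss and Cyp51 in 2, where the adjusted p reached 0.203 and 0.173.

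Cell markers moved with the sets too. Summed stem cell markers ran from 864 to 921 CPM in untreated BR7-BR10 and from 1053 to 1243 CPM in untreated BR1-BR4. Ascl2, a stem cell transcription factor, was lower by edgeR at a log2 difference of -0.51 (SE 0.13, adjusted p = 0.0319), and so was Axin2, a Wnt target, at -0.84 (SE 0.22, adjusted p = 0.0472). Lgr5, on which the cells were sorted, had the lowest untreated value of the stem cell list, -0.87 (SE 0.24, edgeR adjusted p = 0.0592), and was at 0.25 (SE 0.23) in Bch-treated cells. Summed colonocyte markers ran from 3305 to 4007 CPM in untreated BR7-BR10 and from 2575 to 3523 CPM in BR1-BR4, with Fabp2, Aqp8 and Guca2b called higher among 14 tested markers. Of these 14 markers 11 were above 0 and 3 below, with a median of 0.49. In Bch-treated cells the stem cell sums were 765 to 984 and 1006 to 1223 CPM, with Ascl2 (-0.92, SE 0.13) and Sox9 (-0.57, SE 0.14) called lower. There 5 of 14 colonocyte markers were called higher, and 13 were above 0 and 1 below, with a median of 0.74. Summed enteroendocrine markers were 544 to 1107 CPM against 314 to 516 CPM in untreated cells, goblet cell markers overlapped at 3659 to 9615 and 4573 to 6987 CPM, and cycling markers overlapped at 1310.1 to 1742 and 1291 to 1683 CPM. Of 10 tested enteroendocrine markers 8 were above 0 and 2 below in untreated cells (median 0.58), and of 9 tested in Bch-treated cells 6 and 3 (median 0.23). By gene, 11 of 13 tested goblet cell markers were above 0 in untreated cells, with a median of 0.42, and 3 were higher and 1 lower at an unadjusted p under 0.05, none of them called. In Bch-treated cells all 14 were above 0, with a median of 0.63, and 3 were called higher. Of the 11 immediate early and heat shock genes listed as a response to dissociation, 9 were tested in untreated cells, where 5 were above 0 (median 0.11) and 0 had an unadjusted p under 0.05, at sums of 997 to 1659 CPM against 1043 to 1358 CPM. In Bch-treated cells 6 of 10 were above 0 (median 0.20), 4 were higher at an unadjusted p under 0.05, and 1, Fos, was called, at sums of 1018 to 1381 CPM against 993 to 1131 CPM. Tuft cell markers summed to at most 23.1 CPM in any sum. The part of these markers, and of the cell number and mitochondrial share of mouse 1, in the members' differences was not tested.

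Bch itself called no member in either set. In BR7-BR10, edgeR called 0 of 9515 genes (0%) and DESeq2 called 0, with 236 genes higher and 124 lower at an unadjusted p under 0.05. Of the members, 4 were higher at an unadjusted p under 0.05 and 0 lower, against 2.48% and 1.30% of all genes. A log2 fold change above 0 was found for 27 of 32 members (84.4%), against 49.5% of all genes, and the median was 0.12, against -0.002. All 11 squalene and sterol enzymes among the members were above 0, at a median of 0.21. Other genes of the same pathways, listed further below, leaned the other way, with 23 of 60 above 0 and 37 below (median -0.06). Among them, the other sterol and isoprenoid genes had 5 above 0 and 11 below (median -0.09). The 4 ratios per mouse were above 0 in all mice for 4 members, Hmgcs1, Fdft1, Hsd17b7 and Scd2, where 5.84% of all genes were so, and below 0 in all mice for 0 members, where 5.54% were.

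**Figure D4:**
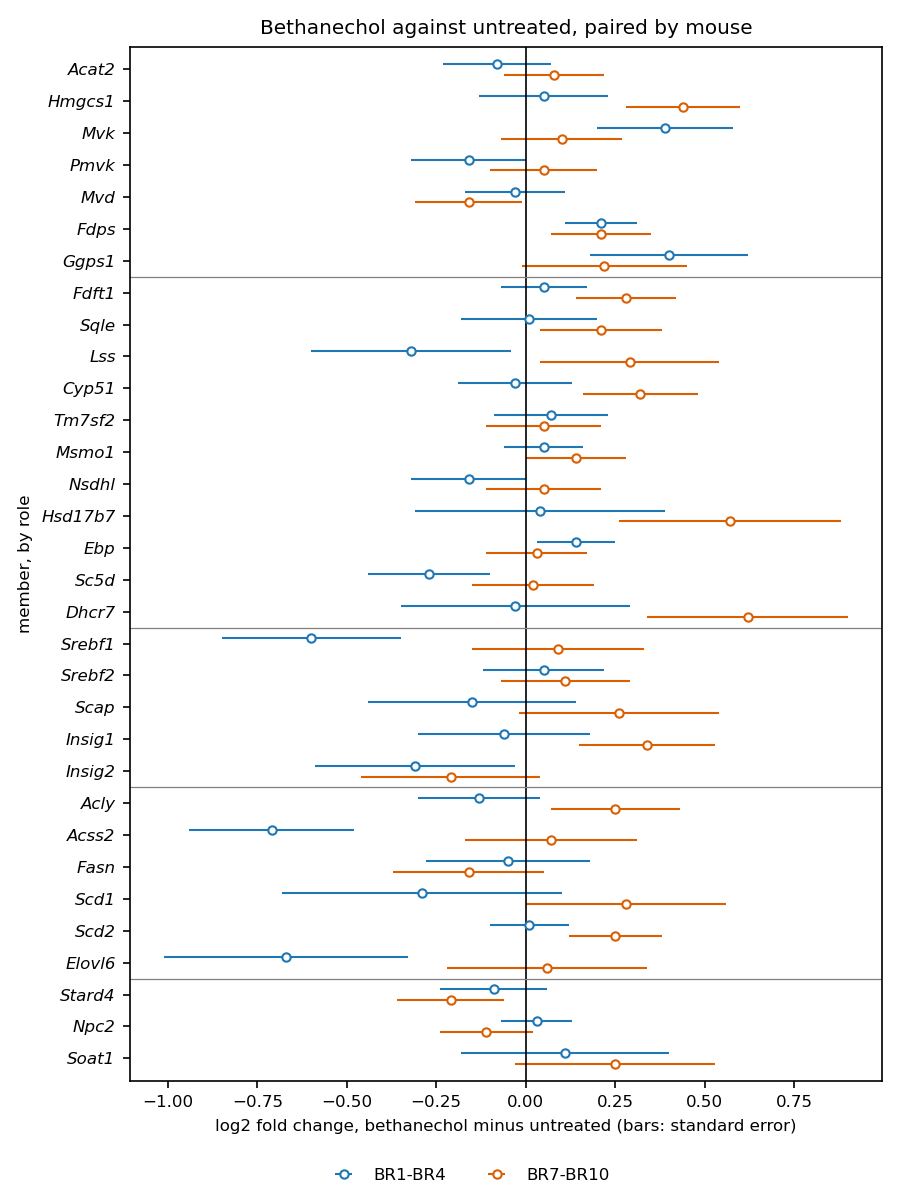
Log2 fold change of Bch against untreated cells for the 32 tested members, paired by mouse, in BR1-BR4 (blue) and BR7-BR10 (orange). Bars are standard errors, open points have an adjusted p of 0.05 or above, and lines part the 5 roles. No point is filled, and 27 orange points against 14 blue points lie above 0.

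Hmgcs1 had the smallest p of the members in BR7-BR10. It was at 56.2, 80.9, 48.1 and 51.9 CPM untreated and at 73.9, 91.6, 73.2 and 78.7 CPM with Bch, in mice 7 to 10 in turn. Each mouse had the higher level with Bch, at a log2 fold change of 0.44 (SE 0.16, edgeR unadjusted p = 0.00924, adjusted p = 0.999). Dhcr7 went from 7.76, 17.3, 16.4 and 18.6 CPM to 32.7, 23.7, 28.9 and 14.3 CPM, at a log2 fold change of 0.62 (SE 0.28, edgeR adjusted p = 0.999). Mouse 7 had by far the widest gap for Dhcr7, and mouse 10 went the other way, and the fold change was 0.30 without mouse 7 and 1.00 without mouse 10. Fdft1 went from 131, 136, 130.5 and 182 CPM to 177, 156, 182 and 186 CPM (log2 fold change 0.28, SE 0.14, edgeR adjusted p = 0.999). Cyp51 went from 92.4, 74.5, 62.9 and 61.0 CPM to 90.8, 94.0, 76.8 and 94.3 CPM (0.32, SE 0.16, edgeR adjusted p = 0.999). No member was lower at an unadjusted p under 0.05, and the 2 nearest were Stard4, a carrier of sterols between membranes, at -0.21 (SE 0.15), and Mvd, at -0.16 (SE 0.15). Stard4 was at 86.0, 115, 97.7 and 106 CPM untreated and at 77.1, 85.0, 80.8 and 107 CPM with Bch, and Mvd at 111, 125, 117 and 147 CPM and then 107, 88.5, 127 and 130.2 CPM. Without mouse 8 they were at -0.13 and -0.03.

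Cell markers in BR7-BR10 were read beside these values. Of 13 tested stem cell markers 7 were above 0 and 6 below, with a median log2 fold change of 0.03, and at an unadjusted p under 0.05 by edgeR 1 was higher (Lgr5, 0.49, SE 0.24) and 1 lower (Ascl2, -0.32, SE 0.13). Summed stem cell markers were at 873, 864, 890.3 and 921 CPM untreated and at 765, 984, 865 and 787 CPM with Bch in mice 7 to 10, lower with Bch in every mouse but mouse 8. Of 14 goblet cell markers 11 were above 0, with a median of 0.22, 2 were higher at an unadjusted p under 0.05 (Muc2 and Fcgbp) and 0 lower. Their sums went from 9615, 5869, 8128 and 3659 CPM to 14554, 5437, 5406 and 6944 CPM, up in mice 7 and 10 and down in mice 8 and 9. Summed colonocyte markers were at 3305 to 4007 and 3420.1 to 3859.9 CPM, and 2 of 14 were higher and 0 lower at an unadjusted p under 0.05. Of 10 tested enteroendocrine markers 1 was higher and 2 lower at that threshold, and of 10 dissociation-response genes 0 and 1. None of the markers in these lists passed the adjusted threshold, and their part in the members' values was not tested.

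In BR1-BR4, edgeR called 2 of 9509 genes, or 0.0210%, and neither was a member. With 1 mouse left out at a time, it called 0 to 19 genes and 0 members. DESeq2 called more genes, as the closing section gives. Members split about evenly, with 14 of 32 above 0 (43.8%), against 50.3% of all genes, and the median was -0.03, against 0.001. That median was -0.19 without mouse 1 and 0.02 without mouse 3. At an unadjusted p under 0.05, 2 members were higher and 2 lower, against 4.46% and 3.26% of all genes. All 4 ratios were above 0 for 2 members and below 0 for 2 (Acss2 and Srebf1), where 8.22% and 6.86% of all genes were so. Srebf1 counts only by a mouse 2 ratio that rounds to 0.00. Mvk was at 40.5, 29.7, 26.4 and 28.2 CPM untreated and at 60.1, 33.6, 36.8 and 36 CPM with Bch, higher in each mouse, at a log2 fold change of 0.39 (SE 0.19, edgeR adjusted p = 0.617). Fdps was at 556, 379, 241 and 284 CPM and then 796, 329.9, 314 and 317 CPM, with mouse 2 going the other way (0.21, SE 0.10, edgeR adjusted p = 0.638). It was 0.09 without mouse 1 and 0.35 without mouse 2.

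Acss2, which activates acetate, was at 31.8, 21.1, 40.5 and 27.2 CPM untreated and at 19.4, 15.7, 20.2 and 16.5 CPM with Bch in BR1-BR4. All 4 mice had the lower level with Bch and the groups did not overlap, at a log2 fold change of -0.71 (SE 0.23, edgeR unadjusted p = 0.00376, adjusted p = 0.308). In BR7-BR10 Acss2 was at 43.3, 24.4, 23.5 and 21.7 CPM and then 16.9, 36, 24.4 and 32.9 CPM, lower in mouse 7 and higher in the other 3. The difference of the Bch effect between the sets was 0.78 for Acss2 (SE 0.34, edgeR unadjusted p = 0.0286, adjusted p = 1.00). It was the single member at an unadjusted p under 0.05, where 2.41% of 10280 genes were higher and 1.97% lower. By edgeR 0% of genes passed the adjusted threshold for this difference, and 0 by DESeq2. The median difference of the members was 0.21, with 23 of 32 above 0 (71.9%), against 49.8% of all genes. For the same difference the goblet cell markers had a median of 0.23 (10 of 14 above 0), the dissociation-response genes 0.22 (7 of 10) and the colonocyte markers 0.16 (9 of 14), with 2 of each list higher at an unadjusted p under 0.05. Among the stem cell markers the median was 0.05, with Lgr5 at 1.15 (SE 0.32, edgeR unadjusted p = 0.000985, adjusted p = 1.00) and Ascl2 at -0.44 (SE 0.16, edgeR unadjusted p = 0.00939, adjusted p = 1.00).

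The markers were also read within BR1-BR4. Summed goblet cell markers went from 4675, 5972, 6987 and 4573 CPM untreated to 3959, 5293, 5463 and 4349.9 CPM with Bch in mice 1 to 4, lower in all 4. Summed dissociation-response genes went from 1244, 1358, 1319.9 and 1043 CPM to 1131, 1096, 1066 and 993 CPM, also lower in all 4, with 0 of 8 tested genes above 0. Summed tuft cell markers, at low levels, went from 11.0, 19.1, 19.4 and 23.1 CPM to 4.25, 8.78, 13.6 and 18.0 CPM, lower in all 4 as well. At an unadjusted p under 0.05 by edgeR, 2 markers were lower and 0 higher among goblet cell, colonocyte and dissociation-response genes alike, and of the stem cell list Lgr5 was lower at -0.66 (SE 0.23). Of 15 cycling cell markers 13 were below 0, with a median of -0.07. None of these markers was called. The part of these markers in the members' values in BR1-BR4 and in the difference between the sets was not tested.

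Srebf1 was at 28.1, 21.8, 21.1 and 34.9 CPM untreated and at 10.9, 21.8, 17.2 and 21.0 CPM with Bch in BR1-BR4. Mouse 2 kept its level to within rounding, and the log2 fold change was -0.60 (SE 0.25, edgeR unadjusted p = 0.0199, adjusted p = 0.547), or -0.36 without mouse 1. In BR7-BR10 it was at 18.1, 21.8, 35.3 and 17.1 CPM and then 31.7, 25.6, 20.8 and 20.8 CPM (0.09, SE 0.24). Insig1 was at 33.1, 19.1, 30.0 and 22.6 CPM and then 43.7, 22.1, 14.1 and 19.0 CPM in BR1-BR4 (-0.06, SE 0.24). In BR7-BR10 Insig1 was at 29.1, 38.5, 33.8 and 34.8 CPM and then 28.5, 46.4, 50.6 and 46.7 CPM (0.34, SE 0.19). Insig1 was thus higher with Bch in mice 8, 9 and 10 and level in mouse 7. The direction of Insig1 in BR1-BR4 (-0.29 to 0.15) and of Srebf1 in BR7-BR10 (-0.08 to 0.41) turned with the mouse left out.

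Srebf2 stayed within 36.3 to 51.1 CPM in untreated and 41.9 to 46.0 CPM in Bch-treated BR1-BR4, with a log2 fold change of 0.05 (SE 0.17). In BR7-BR10 it was at 44.6, 48.8, 47.1 and 48.2 CPM and then 53.8, 58.2, 38.8 and 55.4 CPM (0.11, SE 0.18). Scap was at 17.5, 17.8, 10.6 and 16.9 CPM and then 10.3, 13.0, 11.6 and 23.5 CPM in BR1-BR4 (-0.15, SE 0.29), and at 14.9, 10.3, 17.4 and 13.7 CPM and then 17.9, 19.6, 18.5 and 12.1 CPM in BR7-BR10 (0.26, SE 0.28). Insig2 was at 21.6, 26.4, 28.2 and 9.74 CPM and then 14.0, 15.7, 16.6 and 19.0 CPM in BR1-BR4 (-0.31, SE 0.28), and at 22.0, 20.6, 19.4 and 20.4 CPM and then 24.3, 14.4, 17.6 and 16.9 CPM in BR7-BR10 (-0.21, SE 0.25). None of these passed the unadjusted threshold, and single mice moved them. Leaving out 1 mouse at a time, Insig2 ran from -0.71 (mouse 4) to -0.13 (mouse 2) in BR1-BR4 and from -0.30 (mouse 7) to -0.10 (mouse 8) in BR7-BR10. In BR7-BR10 Scap ran from 0.05 (mouse 8) to 0.43 (mouse 10) and Srebf2 from 0.07 (mouse 8) to 0.24 (mouse 9).

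**Figure D5:**
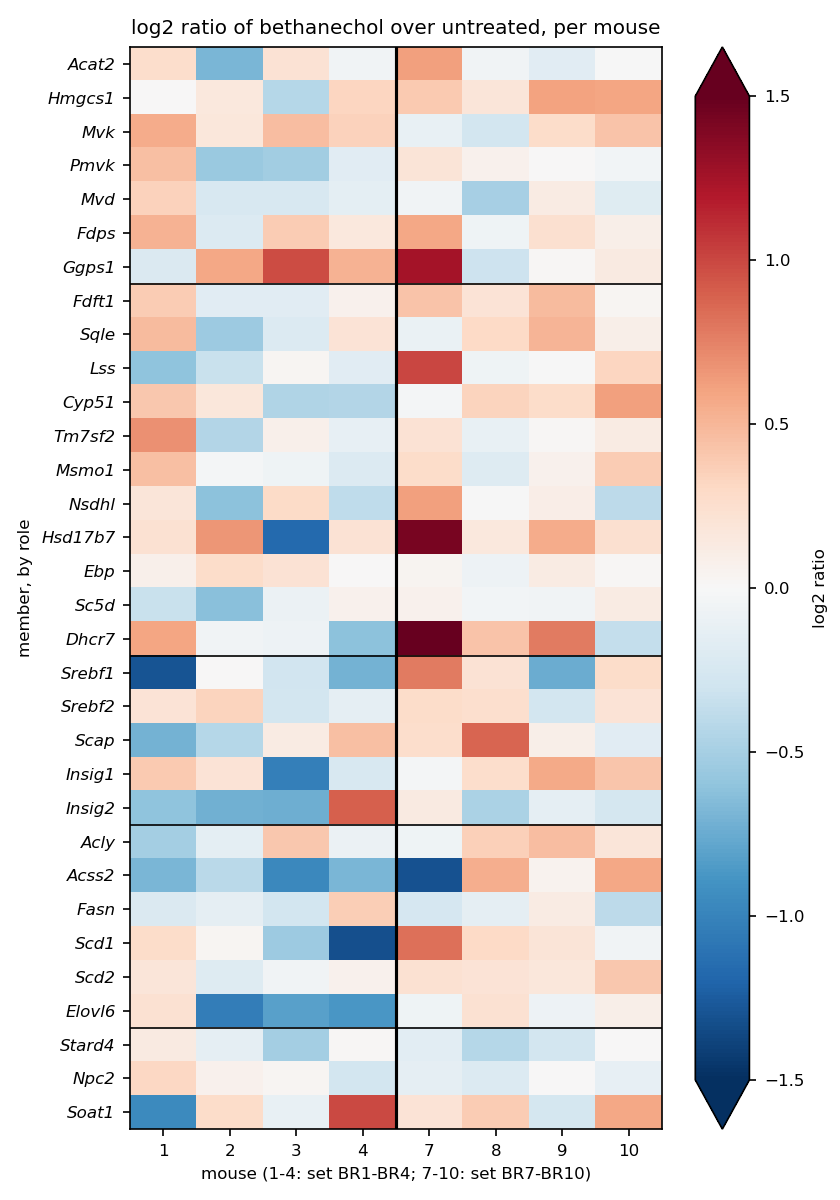
Log2 ratio of Bch over untreated cells for the 32 tested members (rows, by role) in each mouse (columns), with a prior count of 2. Red is higher with Bch, blue lower, and colour is capped at 1.5 in each direction. Over the mevalonate and sterol rows, 15 of 18 ratios are above 0 in mouse 1, 14 in mice 7 and 9, and 13 in mouse 10, against 6 to 9 in mice 2, 3, 4 and 8.

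The response varied between mice within each set. Over the 18 tested mevalonate and sterol enzymes, the median log2 ratio of Bch over untreated was 0.37 in mouse 1 and -0.18, -0.08 and -0.02 in mice 2, 3 and 4. It was 0.33, -0.05, 0.12 and 0.10 in mice 7 to 10. The medians over all genes were within -0.012 and 0.030. Fatty acid genes gave medians of -0.02, -0.17, -0.41 and -0.39 in mice 1 to 4 and -0.07, 0.26, 0.15 and 0.14 in mice 7 to 10. Over all 8 mice, edgeR and DESeq2 both called 0 of 10280 genes (0%). The log2 fold change was above 0 for 21 of 32 members (65.6%), against 51.4% of all genes. At an unadjusted p under 0.05, 2 members were higher and 0 lower, against 3.13% and 2.27% of all genes. Those were Fdps, at 0.21 (SE 0.09, edgeR adjusted p = 0.902, higher in 6 of 8 mice), and Hmgcs1, at 0.27 (SE 0.12, edgeR adjusted p = 0.905, higher in 7 of 8 mice).

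None of the 3 tested members that move or store sterols was called in any comparison. Npc2, which carries cholesterol out of lysosomes, stayed within 275 and 374 CPM over all 16 sums, with log2 differences between the sets of 0.07 (SE 0.12) untreated and -0.07 (SE 0.12) with Bch. Soat1, which esterifies cholesterol for storage, gave -0.19 (SE 0.30) and -0.13 (SE 0.28). Stard4 had the largest untreated set difference of the 3 tested, 0.54 (SE 0.17, edgeR adjusted p = 0.101). Of the 4 untested members, Npc1, the partner of Npc2, lay between 0.513 and 15.9 CPM. Abca1, a cholesterol exporter, lay at or below 2.16 CPM in every sum, Mylip, a ligase that degrades lipoprotein receptors, at or below 5.00 CPM, and Idi1, an isomerase of the isoprenoid route, at or below 8.65 CPM. Values at this level are 0 to a few UMIs in many sums.

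A further 74 genes of the same pathways were listed by role, of which 56 were tested between the untreated sets. None passed the adjusted threshold, 6 were higher and 1 lower at an unadjusted p under 0.05, against 6.66% and 6.05% of all genes, and the median log2 difference was 0.08. By role, 5 sterol and isoprenoid genes were above 0 and 10 below (median -0.05). The fatty acid genes had 18 above and 5 below (median 0.19), and the remaining genes 7 and 11 (median -0.11). In Bch-treated cells 59 were tested, and 1 was called in each direction, against 1.23% of all genes called higher and 0.830% lower. Above 0 were 34 and below 0 were 25, at a median of 0.06. Fabp5, a fatty acid carrier, was higher in BR7-BR10 at a log2 difference of 0.91 (SE 0.24, edgeR adjusted p = 0.0411), with 30.6 to 65.3 CPM against 15.1 to 35.2 CPM. Plin2, a coat protein of lipid droplets, was lower at -0.59 (SE 0.14, edgeR adjusted p = 0.0154), with 62.7 to 68.6 CPM against 92.4 to 104 CPM. Under Bch none was called in either set. In BR7-BR10 23 of 60 tested were above 0 and 37 below (median log2 fold change -0.06), and in BR1-BR4 28 of 57 were above 0 and 29 below (median -0.02). The 2 with the smallest p were Plin2 (log2 fold change -0.34, SE 0.16) and the nuclear receptor Rxra (0.66, SE 0.33) in BR7-BR10, and the desaturase Fads1 (0.31, SE 0.15) and the elongase Elovl7 (0.33, SE 0.16) in BR1-BR4.

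Counting could mix some members with other genes. Whether strand was used in counting, and how reads matching several genes were treated, is not given in the sources used here. Shared sequence was read from a GENCODE release earlier than the one that the paper's methods name. In it, the last 500 bases of the transcripts of 22 of 36 members shared no 65-base sequence with another gene, and 7 members shared over 10%. The share was 100% for Fdft1, whose end overlaps Ctsb on the opposite strand, 67.2% for Fdps, which shares sequence with Gm43738 and other copies, and 23.4% for Cyp51, which overlaps Akap9 on the opposite strand. It was 18.2% for Acat2, shared with Tcp1 and Acat3, so these members' values are uncertain in that measure. The log2 difference between the sets was 0.06 untreated and 0.05 with Bch for Ctsb, 0.03 and 0.11 for Akap9, and -0.12 and -0.14 for Tcp1. Msmo1, Mvk and Scd2 shared none, and Hmgcs1 shared 0.221%.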

How the data were processed

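UMI counts per gene were measured in 32 libraries of sorted Lgr5-EGFP+ cells, and groups came from the sample labels. The authors deposited raw counts without normalization, made with the Drop-seq pipeline, and their methods name mouse build GRCm38 where the labels list GRCh38. In the second technical replicate 1520 genes were blank, with at most 12 UMIs in the first, and were read as 0. Technical replicates were summed per mouse and treatment, because they are no separate animals. Their counts split with 0.519 times the variance of independent draws (5920 genes over 500 UMIs), so summed UMIs are not independent counts.

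Tests used R 4.3.3 and edgeR 4.0.16 (filterByExpr by set and treatment, TMM, robust quasi-likelihood), with limma 3.58.1, and Benjamini-Hochberg adjustment over all genes tested, at 0.05. Bch was tested with the mouse as a block, each set on its own and all 8 mice together, the difference between sets as an interaction, and sets in untreated cells without a block. Standard errors are the log2 fold change over the square root of F. DESeq2 1.42.0, no filter, other normalizations, each technical replicate alone, no block and omission of each mouse were alternatives. The test was checked on simulated counts. A sum with 0 UMIs has a limit of 3 UMIs (95%), which covers counting error only, while standard errors are between mice.

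The pairs are untreated and treated organoids of the same mouse, by the labels, and deviations from the group means correlated at 0.244, 0.0331, 0.0615 and 0.0837 in mice 1 to 4 and at 0.0710, 0.151, 0.00310 and -0.0203 in mice 7 to 10.

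Values per mouse are given for members under an unadjusted p of 0.05 in a set (at most 6 a direction, else the 2 nearest), past the adjusted threshold in any comparison, under an unadjusted p of 0.05 in the difference between the sets (at most 4), the 4 with the smallest p between untreated sets, and Srebf1, Srebf2, Scap, Insig1 and Insig2. Other members named were singled out after their values were seen. Members and lists were chosen with earlier results of these data known.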

Additional observations from a re-analysis of the deposited data

Results flagged for a closer look

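In 12 of 144 groups of 4 mice, a member's highest or lowest level stood apart from the other 3 by more than Dixon's 95% limit, where chance flags about 1 in 20 groups. Of these, 6 were mouse 1 on the high side. Bch-treated mouse 1 was at 120.2 CPM for Acat2 (others 51.6 to 60.4), 60.1 for Mvk (33.6 to 36.8), 143 for Mvd (59.4 to 65.6), 796 for Fdps (314 to 329.9) and 163 for Fdft1 (90.8 to 102), and untreated mouse 1 was at 163 CPM for Scd2 (125 to 129).

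In BR7-BR10, untreated mouse 10 was high for Fdft1 at 182 CPM and untreated mouse 7 was high for Acss2 at 43.3 CPM. In BR1-BR4, untreated mouse 3, the shallowest sum, was low for Scap at 10.6 CPM, and Bch-treated mouse 3 was low for Idi1 at 0.505 CPM. Bch-treated mouse 2 was high for Npc1 at 4.58 CPM and for Abca1 at 0.382 CPM, a single UMI over 0 in the other 3 mice.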

How the results depend on the processing

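Without the replicate block that pairs the sums of a mouse, the BR1-BR4 count of called genes went from 2 to 0 and no other count of calls changed. That count was 15 with DESeq2, 88 without a filter on low counts, 9 with technical replicate 1 alone and 0 in 1 fit over all 8 mice. Without the filter, counts were 15 for the mean Bch effect, 1 for the difference between sets, 234 between untreated sets and 324 between Bch-treated sets, and technical replicate 1 alone gave 1 for the mean effect. The members' median in BR7-BR10 was 0.18 with technical replicate 1 alone. Causes were not tested.

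Leaving out 1 mouse at a time gave 0 to 4 called genes in BR7-BR10, 0 to 19 in BR1-BR4, 0 to 1 for the mean effect, 74 to 210 between untreated and 92 to 469 between Bch-treated sets. Members called ran from 2 to 6 and from 3 to 19 between the sets and stayed at 0 in the Bch comparisons. The members' median ran from 0.09 to 0.17 in BR7-BR10, -0.19 to 0.02 in BR1-BR4, 0.05 to 0.10 for the mean effect, 0.15 to 0.30 for the difference, and 0.29 to 0.44 and 0.51 to 0.77 between the sets. The highest values between Bch-treated sets were those without mouse 1, and without it the BR1-BR4 median was -0.19.

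Of the members named, directions turned for uncalled SREBP genes, and the members' median in BR1-BR4 turned from -0.03 to 0.02 without mouse 3 and 0.01 with technical replicate 1 alone. With technical replicate 1 alone, Srebf1 in BR7-BR10 was -0.15 and Insig1 in BR1-BR4 was 0.25. Leaving out 1 mouse at a time gave -0.08 (mouse 7) to 0.41 (mouse 9) for Srebf1 in BR7-BR10. In BR1-BR4 it gave -0.29 (mouse 1) to 0.15 (mouse 3) for Insig1, with 0.00 without mouse 4, -0.05 (mouse 2) to 0.13 (mouse 3) for Srebf2, with 0.00 without mouse 1, and -0.43 (mouse 4) to 0.06 (mouse 1) for Scap. Depth limits Idi1, Mylip, Npc1 and Abca1.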
